A study of Arabidopsis thaliana with 36 samples.

Results

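The 10 genes described here are effector genes of the abscisate and cold responses of Arabidopsis thaliana, chosen by their locus codes from the 28774 genes of the count tables. They are RD29A (AT5G52310), RD29B (AT5G52300), RAB18 (AT5G66400), COR15A (AT2G42540), COR15B (AT2G42530), COR47 (AT1G20440), KIN1 (AT5G15960), KIN2 (AT5G15970), LTI30 (AT3G50970) and ERD10 (AT1G20450). All 10 passed the filter on low counts, beside 19457 genes tested in all. RNA was sequenced from rosette leaves 9 to 12 of plants grown on soil for 5 weeks with 8 h of light a day. The 3 genotypes were the Col wild type (WT, CS60000) and the mutants ivd1-2 and hml1-2, which carry lesions in leucine breakdown, in IVD (isovaleryl-CoA dehydrogenase) and HML1 (hydroxymethylglutaryl-CoA lyase). Each genotype was sampled before treatment (0 h), after 6, 24, 48 and 72 h of unbroken darkness, and after a further 72 h of the day and night cycle (72 h cycle), which gave 18 groups of 2 libraries. Each mutant was represented by 1 allele, and no label says whether the 2 libraries of a group came from separate plants, so the tests measure the spread between libraries.

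Abscisate is the hormone that plants make when they lose water. It binds receptors that switch off protein phosphatases and so release kinases, which activate transcription factors that bind the ABRE core ACGTG. Cold acts in large part through the CBF factors, which bind the CRT/DRE core CCGAC. Many of the proteins made in the end are very hydrophilic. RAB18, COR47, ERD10 and LTI30 are dehydrins, thought to shield proteins and membranes in dry or frozen cells, and COR15A and COR15B protect chloroplast membranes during freezing. RD29A is a classic reporter of drought and cold, RD29B one of abscisate, and KIN1 and KIN2 are small cold-induced proteins.

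The libraries held 13638597 to 49398596 counts in genes. Levels are given as CPM, counts scaled to a common library size by TMM, with replicate 1 before replicate 2. The targeted genes went with their labels, IVD being lower in ivd1-2 (log2 -2.49 ± 0.14 SE, adjusted p = 2.48e-10) and HML1 in hml1-2 (log2 -0.76 ± 0.06, adjusted p = 3.98e-07), each over the 6 conditions. The leaf mesophyll markers were present in every library, and of the 4 seed storage markers 3 had no count in any of the 36 libraries. The 2 libraries of ivd1-2 at 72 h of darkness stood furthest apart of the 18 pairs, with a Pearson correlation of 0.884 between their log2 CPM, against at least 0.931 in the others. In them the summed level of 12 salicylate defence genes was 2959 CPM in replicate 1 and 87.7 CPM in replicate 2, against 36.5 to 109 CPM in the 4 WT and hml1-2 libraries. Results at 72 h are therefore given with and without replicate 1 of ivd1-2. In these whole-leaf libraries fewer cells of a type and less RNA per cell cannot be told apart.

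The 250 bases before the annotated gene start are shown for 4 of the genes, RD29A, RD29B, RAB18 and COR15A. They were read from RefSeq TAIR10.1, since the count tables hold no coordinates. They are chr5:21240467-21240716 (plus strand), chr5:21236771-21237020 (plus strand), chr5:26519448-26519697 (minus strand) and chr2:17712331-17712580 (minus strand), each written 5′ to 3′ toward the gene. Capitals mark ACGTG or CCGAC on either strand (CACGT and GTCGG are their reverse complements), and in RAB18 also AGATATTT, the reverse complement of the evening element AAATATCT bound by clock factors.
RD29A: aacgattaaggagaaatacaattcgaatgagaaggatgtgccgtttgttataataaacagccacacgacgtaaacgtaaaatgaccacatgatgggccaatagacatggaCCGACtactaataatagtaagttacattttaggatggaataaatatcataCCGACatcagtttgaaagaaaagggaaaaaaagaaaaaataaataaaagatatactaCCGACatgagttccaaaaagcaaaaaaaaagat
RD29B: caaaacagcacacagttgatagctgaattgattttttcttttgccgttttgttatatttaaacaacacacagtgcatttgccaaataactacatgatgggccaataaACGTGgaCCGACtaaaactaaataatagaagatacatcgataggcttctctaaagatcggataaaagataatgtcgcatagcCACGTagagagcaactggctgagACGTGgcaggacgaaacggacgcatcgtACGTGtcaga
RAB18: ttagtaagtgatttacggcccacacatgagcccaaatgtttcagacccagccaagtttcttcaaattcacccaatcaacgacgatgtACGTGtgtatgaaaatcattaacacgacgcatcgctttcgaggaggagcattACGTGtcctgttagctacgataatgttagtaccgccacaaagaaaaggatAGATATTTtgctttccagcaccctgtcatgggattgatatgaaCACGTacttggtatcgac
COR15A: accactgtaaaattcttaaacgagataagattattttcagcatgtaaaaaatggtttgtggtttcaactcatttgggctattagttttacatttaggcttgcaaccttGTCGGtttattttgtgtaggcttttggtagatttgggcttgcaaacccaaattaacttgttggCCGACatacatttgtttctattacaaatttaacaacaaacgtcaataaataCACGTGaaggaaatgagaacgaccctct

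RD29A held 3 CRT/DRE cores, which began 140, 90 and 33 bases before the gene start, and no ABRE core. RD29B, its neighbour on chromosome 5, held 4 ABRE cores (143, 61, 38 and 10 bases before the start) and 1 CRT/DRE core (136 bases). RAB18 held 3 ABRE cores at 163, 111 and 18 bases, with an evening element at 61 bases. COR15A held 2 CRT/DRE cores at 142 and 79 bases and the palindrome CACGTG, which counts on both strands at 28 and 27 bases. Of the other members, LTI30 held 3 CRT/DRE cores and no ABRE core, KIN1 held 1 ABRE core and 1 evening element, and KIN2 held 1 ABRE core. COR15B, COR47 and ERD10 held none of these letters in this window, and the window of COR15B lay almost wholly inside COR15A, which ends 7 bases before COR15B starts. Among 27443 promoters of protein-coding genes of the same length, 22.9% held ACGTG and 12% held CCGAC, against 5 and 4 of the 10 members. At least 3 ABRE cores occurred in 2.99% of promoters and in 2 members. In the longer window of 1000 bases, which can reach into a neighbouring gene, ACGTG was in 6 members and 54.4% of promoters, and CCGAC in 9 members and 37.4% of promoters. There ERD10 held 5 ABRE and 2 CRT/DRE cores, and COR15B and COR47 held 1 CRT/DRE core each. The windows end at the annotated gene start, so matches past it, inside the annotated gene, were not counted. A core missing from a window may therefore still be present nearby. A match is a string of letters and not a measured binding site.

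**Figure D1:**
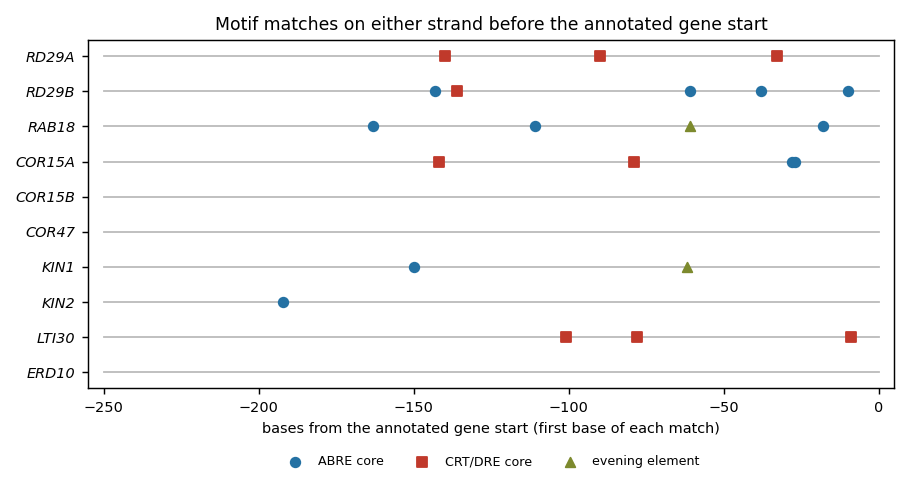
Matches to the ABRE core, the CRT/DRE core and the evening element (symbols) on either strand in the 250 bases before the annotated start of each of the 10 genes; the horizontal axis is the distance in bases of the first base of the match. Within this window RD29A and LTI30 carry 3 CRT/DRE cores each and no ABRE core, and RD29B carries 4 ABRE cores. Matches past the annotated start were not counted.

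Most members rose in darkness in every genotype, though COR15A and COR15B did not at every time. After 6 h, all 10 members had risen above 0 h in WT, in ivd1-2 and in hml1-2, where 21%, 18.9% and 20.9% of all genes tested rose. In WT the changes ran from log2 2.68 for RAB18 to log2 7.51 for RD29A. At 24, 48 and 72 h, 9 of the 10 stood above 0 h in WT (background 26%, 27.9% and 30.3%), the exception at each time being COR15B. The labels give no clock time of harvest, and by their hours 6 h was taken later in the day than 0 h. The part of time of day in the 6 h rise was not tested. After 72 h of darkness against 72 h of cycle, 8 of 10 rose in WT, in ivd1-2 and in hml1-2 (background 31.9%, 31.7% and 31.4%). COR15A and COR15B did not pass there in any genotype, with log2 0.97 and 0.24 in WT, -0.92 and -0.52 in ivd1-2, and 1.02 and 0.32 in hml1-2.

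The members followed 3 courses in darkness. RD29A, COR15A and COR15B had their highest means at 6 h in all 3 genotypes. For RD29A, after a fall at 24 h, the 72 h mean came near that of 6 h in WT (581 against 625 CPM) and in hml1-2 (593 against 655), with overlapping libraries. In ivd1-2 it did not (145 against 270). RD29B and RAB18 climbed to their highest means at 72 h in all 3. COR47, ERD10, KIN1, KIN2 and LTI30 had lower means at 24 h than at 6 h and were highest at 72 h in WT. From 6 to 24 h, 4 members fell in WT, COR15B (log2 -4.68), RD29A (-2.93), LTI30 (-2.33) and ERD10 (-0.87), where 8.2% of all genes fell. RD29B rose over the same hours (log2 1.51, adjusted p = 0.0261). The same 4 members fell in ivd1-2 and in hml1-2 (background 6.22% and 8.19%). In ivd1-2 RAB18 rose in that interval (log2 1.63, adjusted p = 0.0196), while RD29B did not pass (0.26, adjusted p = 0.744).

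From 24 to 72 h of darkness 6 members rose in WT, RD29B (log2 4.16), RAB18 (3.08), LTI30 (3.06), RD29A (2.82), ERD10 (1.49) and COR47 (1.37), where 7.07% of all genes rose. In hml1-2 7 rose (background 8.92%), the 6 of WT and COR15B (1.93, adjusted p = 0.0271). In ivd1-2 5 rose (background 16.1%), RD29B (3.34), LTI30 (3.35), RD29A (2.86), COR47 (1.66) and ERD10 (1.27). RAB18 in ivd1-2 gave log2 0.96 over these 48 h (adjusted p = 0.104). COR15A fell in ivd1-2 (-1.97, adjusted p = 0.0377), and gave -0.72 in WT and -0.63 in hml1-2, neither of which passed.

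**Figure D2:**
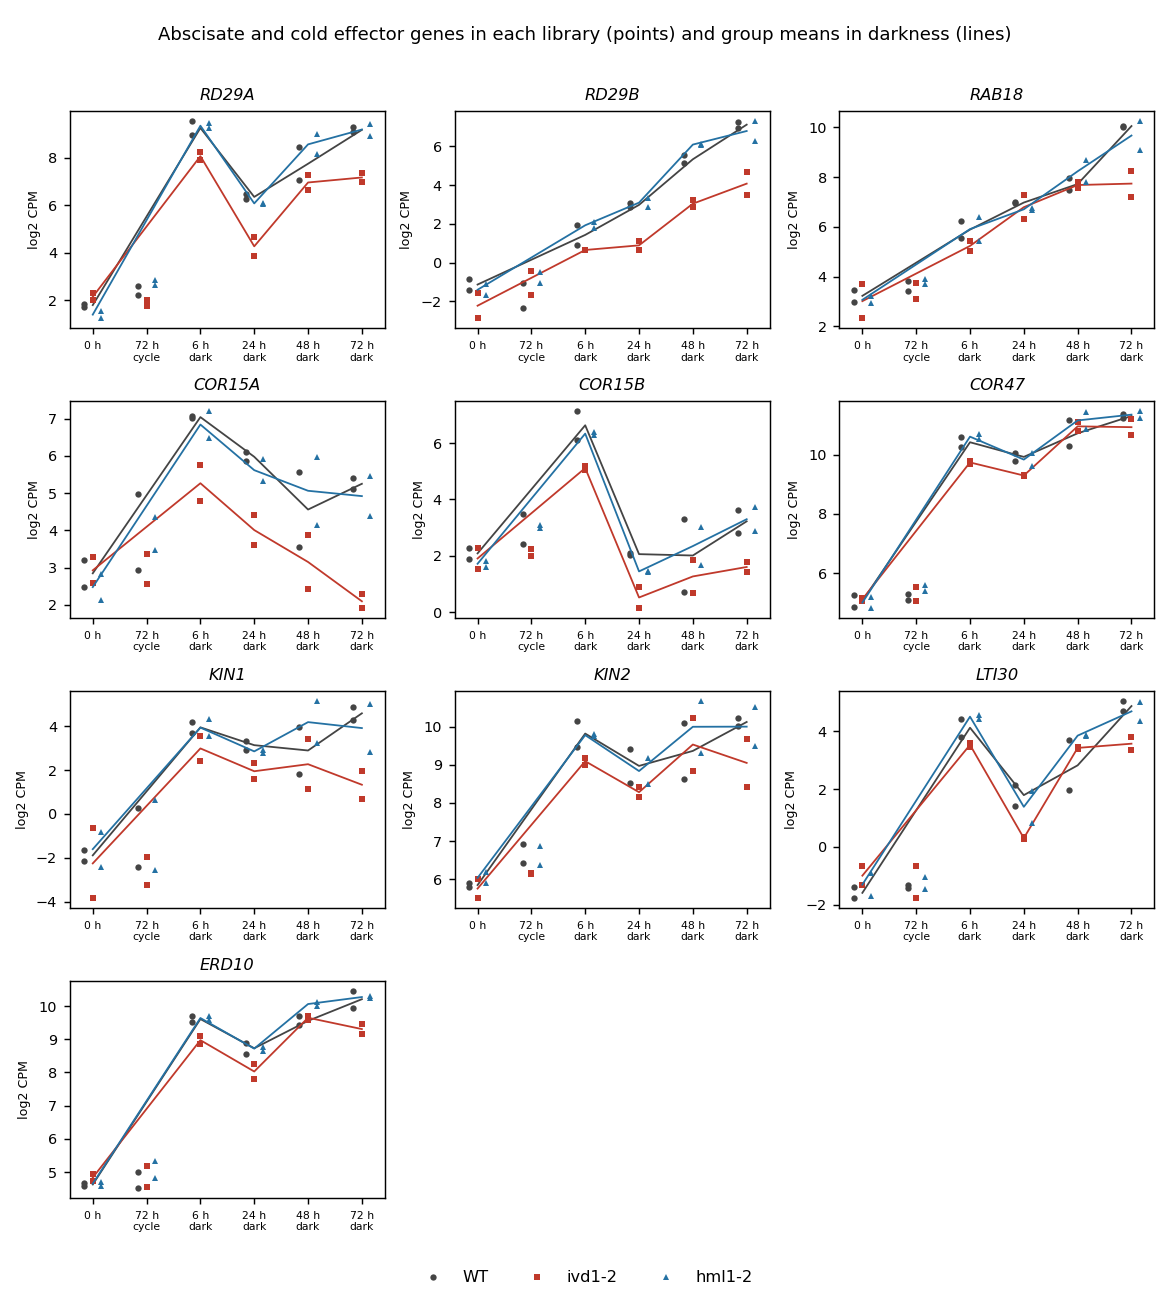
Level of each of the 10 genes (log2 CPM, prior count 2) in each of the 36 libraries (points) by condition, with lines through the group means of 0, 6, 24, 48 and 72 h of darkness for WT, ivd1-2 and hml1-2. RD29A and COR15B peak at 6 h and drop by 24 h, after which RD29A rises again. RD29B and RAB18 climb to 72 h, and at 72 h the ivd1-2 points of RD29A, RD29B, RAB18 and COR15A lie below those of WT and hml1-2.

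RD29A, the drought and cold reporter, rose in every genotype at 6 h and passed the test as lower in ivd1-2 than in WT at 24 and 72 h. At 0 h it stood at 3.56 and 3.26 CPM in WT, 3.93 and 4.84 in ivd1-2 and 2.29 and 2.87 in hml1-2. At 6 h it reached 499 and 752 CPM in WT and 611 and 699 in hml1-2, against 301 and 240.3 in ivd1-2. At 24 h the values were 87.9 and 76.0 in WT, 68.3 and 66.9 in hml1-2 and 25.5 and 14.5 in ivd1-2. Both ivd1-2 libraries lay below the other 4 at both times. At 48 h WT gave 134 and 347, hml1-2 283 and 507, and ivd1-2 100.3 and 155, so that ivd1-2 overlapped WT and not hml1-2. At 72 h WT gave 624 and 537, hml1-2 491 and 696 and ivd1-2 127 and 163, again without overlap. Against WT the log2 difference was -1.21 ± 0.36 (SE) at 6 h (adjusted p = 0.407), -2.03 ± 0.37 at 24 h (0.00949), -0.91 ± 0.35 at 48 h (0.169) and -1.999 ± 0.36 at 72 h (0.000922).

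RD29B, the abscisate reporter, passed the test as lower in ivd1-2 than in WT at 24, 48 and 72 h. At 24 h it stood at 7.29 and 8.35 CPM in WT, 7.16 and 9.997 in hml1-2 and 2.1002 and 1.51 in ivd1-2. At 48 h WT gave 34.6 and 46.7, hml1-2 66.2 and 69.9, and ivd1-2 7.22 and 9.20. At 72 h WT gave 155 and 125, hml1-2 77.1 and 159, and ivd1-2 11.0 and 25.6. The ivd1-2 libraries lay below all others at each of these times, and the 72 h level of ivd1-2 was below the 48 h level of WT. The differences from WT were log2 -2.11 ± 0.46 (adjusted p = 0.0401), -2.31 ± 0.45 (0.00533) and -2.93 ± 0.46 (0.000243). At 0 h and in the cycle all 12 libraries were below 1 CPM.

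RAB18, an abscisate-induced dehydrin, passed the test as lower in ivd1-2 than in WT at 72 h and in none of the other 5 conditions. At 6 h it gave 74.5 and 47.1 CPM in WT, 83.9 and 43.0 in hml1-2 and 43.5 and 32.4 in ivd1-2, so that ivd1-2 lay below WT and overlapped hml1-2. It stood at 124 and 128 CPM in WT, 107 and 102 in hml1-2 and 155 and 79.0 in ivd1-2 at 24 h. At 48 h the values were 181 and 247 in WT, 223 and 408 in hml1-2 and 221 and 191 in ivd1-2. The groups overlapped at 24 h, and at 48 h ivd1-2 overlapped WT. At 72 h WT reached 1050.5 and 1081 and hml1-2 544 and 1231, while ivd1-2 gave 149 and 307. The log2 difference from WT was -0.11 ± 0.46 at 24 h, -0.05 ± 0.46 at 48 h and -2.22 ± 0.48 at 72 h (adjusted p = 0.00281). The test of the step itself, the 72 h difference minus the 48 h difference, gave log2 -2.17 ± 0.65 and did not pass (adjusted p = 0.26). No member passed that test against WT or hml1-2, nor did any gene (background 0%). By unadjusted p under 0.05, 4 members had a larger shortfall from WT at 72 h than at 48 h (background 4.09%) and 1 from hml1-2 (3.75%), and DESeq2's Wald test with adjustment also called 0.

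COR15A and COR15B, the genes of the chloroplast proteins, passed the test as lower in ivd1-2 than in WT at 72 h. COR15A stood at 129 and 134 CPM in WT, 148 and 88.7 in hml1-2 and 53.5 and 27.5 in ivd1-2 at 6 h. At 72 h it stood at 34.3 and 42.0 in WT, 20.7 and 43.9 in hml1-2 and 3.67 and 4.81 in ivd1-2, where its level was below that of ivd1-2 at 0 h (9.61 and 5.90). The 72 h libraries of ivd1-2 lay below the other 4, with log2 -3.17 ± 0.75 against WT (adjusted p = 0.00553). COR15B went from 69.5 and 141 CPM in WT and 36.01 and 33.2 in ivd1-2 at 6 h to 6.97 and 12.4 in WT, 7.29 and 13.1 in hml1-2 and 2.60 and 3.41 in ivd1-2 at 72 h. The groups did not overlap there, with log2 -1.69 ± 0.61 against WT (adjusted p = 0.048). COR15B overlaps a gene on the other strand by 468 bases, and no source used here gives the strand setting of the counting.

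KIN1 and KIN2 are close copies, 91.9% identical over 505 aligned bases of transcript, though 1.28% and 1.43% of their 50-base stretches occur in the other copy. How reads that match both were counted is not given. KIN1 at 72 h stood at 19.6 and 29.4 CPM in WT, 7.05 and 32.0 in hml1-2 and 1.55 and 3.84 in ivd1-2. KIN2, which had the highest level per length of the group in WT at 72 h, stood at 1188 and 1042 CPM in WT, 717 and 1458 in hml1-2 and 344 and 815 in ivd1-2. KIN1 was lower in ivd1-2 than in WT (log2 -3.19 ± 1.08, adjusted p = 0.0372), while KIN2 did not pass (log2 -0.94 ± 0.52, adjusted p = 0.198). In ivd1-2 the KIN2 libraries overlapped those of hml1-2 and not those of WT.

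The dehydrins COR47 and ERD10 are neighbours on chromosome 1, and at 72 h ERD10 passed between ivd1-2 and WT where COR47 did not. COR47 at 72 h gave 2635 and 2437 CPM in WT, 2395 and 2857 in hml1-2 and 1627 and 2340.4 in ivd1-2, and did not pass (log2 -0.35 ± 0.27, adjusted p = 0.361). ERD10 gave 1409 and 991 in WT, 1258 and 1214 in hml1-2 and 566 and 708 in ivd1-2, and was lower than in WT (log2 -0.91 ± 0.23, adjusted p = 0.00751). Both ivd1-2 libraries lay below the other 4 for both genes. LTI30, a cold-induced dehydrin, gave 33.1 and 25.7 in WT, 20.6 and 32.1 in hml1-2 and 10.05 and 13.9 in ivd1-2, with log2 -1.30 ± 0.44 (adjusted p = 0.0373).

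Counted by condition, most calls between ivd1-2 and the other genotypes came at 72 h. Against WT 0 of 10 members passed at 0 h, in the 72 h cycle and at 6 h (background for lower genes 0.00514%, 0.0103% and 0.0154%), 2 at 24 h (RD29A and RD29B; 0.236%), 1 at 48 h (RD29B; 1.75%) and 8 at 72 h (all but COR47 and KIN2; 10.7%). Against hml1-2 the counts were 0 at 0 h, in the cycle and at 6 h (0.00514%, 0.00514% and 0.0103%), 0 at 24 h (0.0668%), 2 at 48 h (RD29A and RD29B; 0.797%) and 6 at 72 h (9.71%), the 8 less KIN1 and LTI30. Both sets of counts share the ivd1-2 libraries. At 24 h against hml1-2, RD29A and RD29B each had adjusted p = 0.0501, 5 members had an unadjusted p under 0.05 (2.95% of all genes), and DESeq2 called 2. Every member that passed was lower in ivd1-2.

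At 72 h RD29A and RD29B passed in both comparisons with any 1 library left out. Without replicate 1 of ivd1-2 they were the 2 members that passed against WT, and likewise against hml1-2. Without replicate 2 of ivd1-2 there were 6 against WT, without replicate 1 of WT 4, and without replicate 2 of WT 5. COR15B and LTI30 were lost in each of these 4 fits, KIN1 in 3, ERD10 in 2, and RAB18 and COR15A only without replicate 1 of ivd1-2. Against hml1-2 at 72 h, 3 passed without replicate 2 of hml1-2, 4 without its replicate 1, and 5 without replicate 2 of ivd1-2. A fit to the 4 libraries compared, which leaves 2 residual degrees of freedom, called 0 at 24, 48 and 72 h.

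The 24 h and 48 h calls also rested on single libraries. At 24 h against WT, RD29A and RD29B were both lost without replicate 2 of ivd1-2 or replicate 1 of WT, and RD29B without replicate 1 of ivd1-2 or replicate 2 of WT, which left counts of 0, 0, 1 and 1. At 48 h against WT the count was 0 without replicate 1 of ivd1-2 and 2, with RD29A, without replicate 1 of WT. Against hml1-2 at 48 h RD29A was lost without replicate 2 of hml1-2 and without either ivd1-2 library, which left 1.

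At 6 h, when no member passed, all 10 had both ivd1-2 libraries below both WT libraries, as did 29.4% of all genes tested, and 9 had them below all 4 libraries of WT and hml1-2 (20.2%), the exception being RAB18. The median log2 difference of the 10 from WT was -0.81, against -0.07 over all genes. By unadjusted p under 0.05, 5 were lower than in WT (background 4.86%) and 7 lower than in hml1-2 (3.18%), and DESeq2 with adjustment called 0 in both. At 24 h the same 9 members lay below all 4 libraries (background 15.5%), at 48 h 1 did (RD29B, 13.4%), and at 72 h 9 did (20.3%), with KIN2 the exception. The 2 WT libraries stood further apart at 48 h. Over the members the median ratio of the higher to the lower was 2.66 there, against 1.20 at 24 h and 1.23 at 72 h. In the 6 h libraries the salicylate defence genes summed to 389 to 1095 CPM in ivd1-2, 67.4 to 79.8 in WT and 87.8 to 107 in hml1-2. The 4 mesophyll markers summed to 10922 to 11579.5 CPM in ivd1-2, 15596 to 19488 in WT and 15183 to 17181 in hml1-2. The part of either in the result was not tested.

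**Figure D3:**
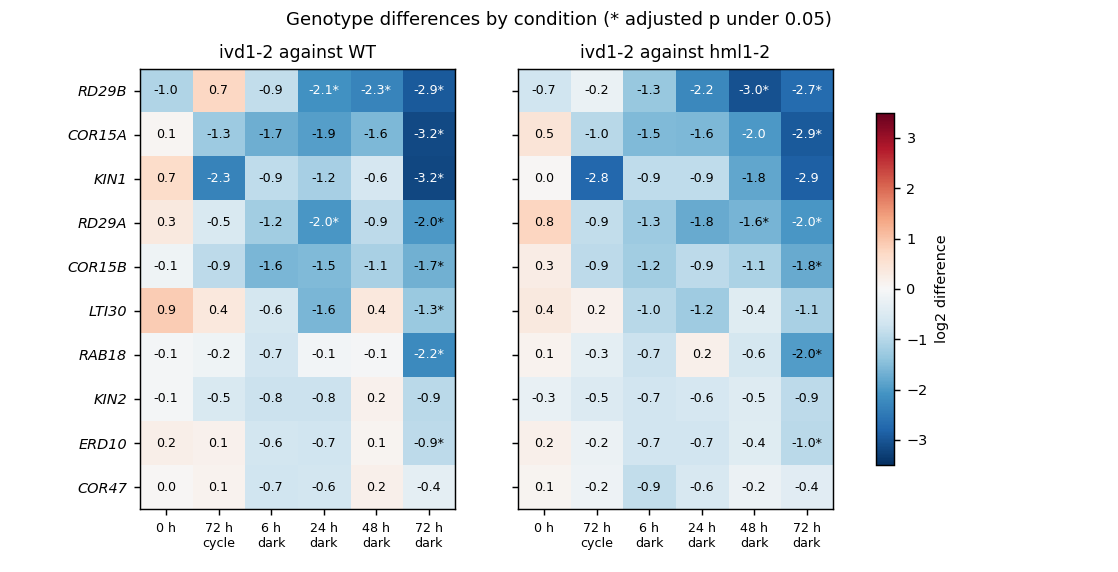
Log2 difference of ivd1-2 from WT (left) and from hml1-2 (right) for each gene (rows) in each condition (columns), with blue for lower in ivd1-2 and an asterisk where the adjusted p was under 0.05. The asterisks lie at 24, 48 and 72 h of darkness, RD29B and RD29A have the most, and COR47 and KIN2 have none.

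Averaged over 24, 48 and 72 h of darkness, with 6 libraries a genotype, 8 of the 10 members were lower in ivd1-2 than in WT and the same 8 were lower than in hml1-2, where 12.8% and 10.5% of all genes tested were lower. The median log2 difference of the 10 was -1.15 from WT and -1.10 from hml1-2, and that of all genes -0.005 and -0.004. RD29B had the largest difference from WT (log2 -2.45 ± 0.26, adjusted p = 1.32e-06), followed by COR15A (-2.22 ± 0.42, 0.000593), RD29A (-1.65 ± 0.21, 1e-05), KIN1 (-1.65 ± 0.59, 0.0442) and COR15B (-1.46 ± 0.35, 0.00483). LTI30 (-0.84 ± 0.26, 0.0204), RAB18 (-0.79 ± 0.26, 0.0316) and ERD10 (-0.51 ± 0.13, 0.00736) had smaller ones. KIN2 (-0.51 ± 0.30, 0.218) and COR47 (-0.27 ± 0.15, 0.211) did not pass. The 95% interval of COR47 reached from -0.59 to 0.05, and that of KIN2 from -1.14 to 0.11.

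Leaving out the 72 h time, an alternative added after the data were seen, left 3 of these members against WT and 3 against hml1-2, RD29A, RD29B and COR15A. The share of all genes lower in that shorter mean was not computed, so these counts have no background beside them. In fits that left out 1 of the 12 libraries, RD29A, RD29B, COR15A, COR15B and ERD10 kept their call against WT in 12 of 12. LTI30 kept it in 7, RAB18 in 5 and KIN1 in 3. The count against WT was 5 without replicate 2 of ivd1-2 at 24 h, replicate 1 of WT at 24 h, replicate 2 of WT at 48 h or replicate 1 of ivd1-2 at 72 h. Against hml1-2 it was 5 without replicate 1 of hml1-2 at 24 h, replicate 2 of ivd1-2 at 24 h or replicate 2 of hml1-2 at 48 h, and 10 without replicate 2 of ivd1-2 at 72 h. RD29A, RD29B, COR15A and ERD10 kept their call against hml1-2 in 12 of 12 such fits, LTI30 in 11, COR15B in 10, and KIN1 and RAB18 in 4 each.

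**Figure D4:**
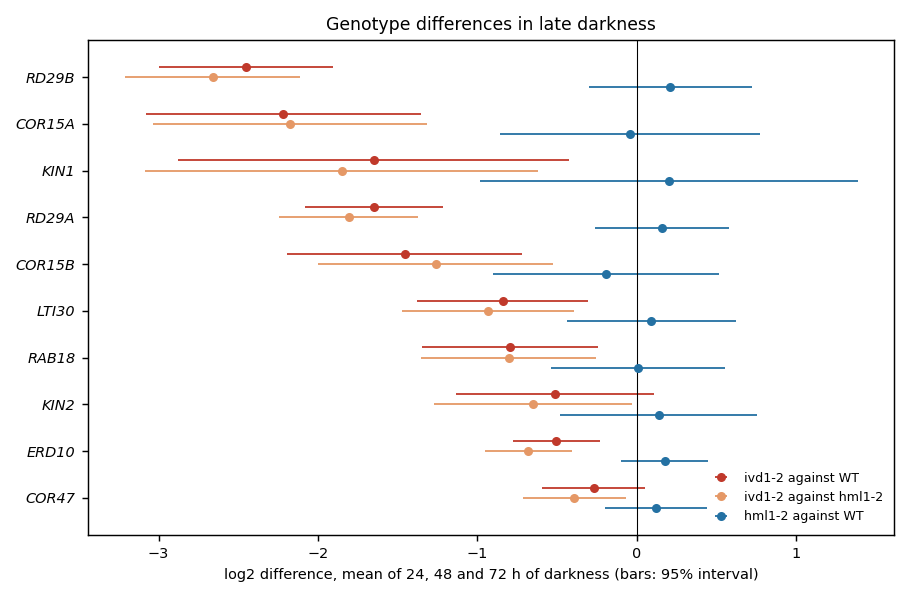
Log2 difference between genotypes averaged over 24, 48 and 72 h of darkness (points) with its 95% interval (bars) for each of the 10 genes, in 3 comparisons. The ivd1-2 points lie left of 0 for every gene, from -2.45 to -0.27 against WT, and the intervals of hml1-2 against WT all cover 0.

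The difference between genotypes in darkness was set against that in the light cycle, taken as the mean of 0 h and the 72 h cycle. It had grown for 2 of 10 members against WT (background 2.68%) and 2 of 10 against hml1-2 (1.55%), RD29A and RD29B in both. RD29A gave log2 -1.55 ± 0.34 against WT (adjusted p = 0.00953) and -1.76 ± 0.34 against hml1-2 (0.00661). RD29B gave -2.29 ± 0.58 (0.0222) and -2.20 ± 0.58 (0.039). ERD10 came next (-0.68 ± 0.21, adjusted p = 0.0586 against WT and 0.082 against hml1-2), then LTI30 (-1.47 ± 0.50, 0.091) and COR15A (-1.62 ± 0.64, 0.149). In the 72 h cycle itself RD29A, COR15B and KIN2 had both ivd1-2 libraries below all 4 libraries of WT and hml1-2. The share of all genes in that order is not given for the cycle. From 6 to 72 h of darkness it was 13.4% to 20.3%, so the order alone does not set these genes apart. RD29A in the cycle gave 6.02 and 4.64 CPM in WT, 7.26 and 6.11 in hml1-2 and 4.005 and 3.32 in ivd1-2 (log2 -0.54 ± 0.37 against WT). COR15B gave log2 -0.93 ± 0.59 and KIN2 -0.54 ± 0.52. COR15A and KIN1 had larger differences there, log2 -1.28 ± 0.70 and -2.34 ± 1.405, with libraries that overlapped those of WT. None of these 5 passed (each adjusted p = 1). KIN1 was at 1.13 and 0.120 CPM in WT and 0.191 and 0.0373 in ivd1-2 there, so that this difference rested on few counts. The light groups also differed in the summed salicylate defence genes, which at 0 h stood at 856 and 72.2 CPM in WT, 1571 and 73.0 in hml1-2 and 616 and 421 in ivd1-2. In the 72 h cycle they stood at 105 and 76.3 in WT, 573 and 79.8 in hml1-2 and 565 and 849 in ivd1-2. Their part in the change was not tested. The RD29A calls stood with any 1 of 20 libraries left out. RD29B was lost against WT when any of 4 libraries was left out, replicate 1 of ivd1-2 and replicate 2 of WT from 0 h, and replicate 2 of ivd1-2 and replicate 1 of WT from the cycle. Against hml1-2 RD29B was lost in 8 of the 20 fits, those without replicate 1 of ivd1-2, replicate 1 of hml1-2 or replicate 2 of hml1-2 at 0 h, replicate 2 of ivd1-2 or replicate 1 of hml1-2 at 24 h, replicate 1 of hml1-2 at 48 h, and replicate 2 of ivd1-2 or replicate 1 of hml1-2 in the cycle, with counts of 1 or, where ERD10 passed, 2.

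In hml1-2 0 of 10 members passed against WT in each of the 6 conditions by edgeR, where 0.00514% to 0.0103% of all genes passed in either direction, and DESeq2 called 0 lower. By unadjusted p under 0.05 in either direction the count was 1 at 48 h and 0 elsewhere, and the share of all genes is not given. At 48 h the hml1-2 mean was above that of WT for every member but COR15B (96.9% of WT). The others ran from 132% for COR47 to 235% for KIN1. Over late darkness the log2 differences ran from -0.19 for COR15B to 0.21 for RD29B, with 0 of 10 past the test (background 0.0206%). The 95% interval of RD29A was -0.26 to 0.58 and that of KIN1 -0.98 to 1.39. Differences in KIN1 within that interval remain compatible with these libraries.

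Of the 10 genes 8 form 4 neighbouring pairs with no protein-coding gene between them and the same strand. RD29B and RD29A lie 1185 bases apart, COR15B and COR15A 7, COR47 and ERD10 1029, and KIN1 and KIN2 892. The transcripts of RD29A and RD29B are 72.9% identical over 1122 aligned bases, those of COR15A and COR15B 75.8% over 803 and those of COR47 and ERD10 73.5% over 1399. None of these 3 pairs shares a stretch of 50 bases, and for KIN1 and KIN2 1.28% and 1.43% of such stretches occur in the other copy. Over the 36 libraries, which share the conditions and genotypes, the Pearson correlation of log2 CPM was 0.993 for COR47 and ERD10 and 0.978 for RD29A and LTI30, which are no neighbours. It was 0.02 for RD29B and COR15B and 0.01 for RAB18 and COR15B. Over the 18 libraries of late darkness alone these 2 pairs gave 0.799 and 0.785, and the first 2 pairs 0.921 and 0.932.

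Genes outside the list that were most like 4 members over the 18 group means were named by the highest Pearson correlation of log2 CPM. For RD29A they were AT4G33467 (0.981), HDA2 (0.979) and PIF4 (0.979). For RAB18 they were HSFA6A (0.992), PRHA (0.991) and AT4G21620 (0.991). For COR15A they were PTAC6 (0.963), AT4G19530 (0.961) and AT4G25680 (0.958), and for KIN1 ERD4 (0.981), COR413-PM1 (0.981) and AT1G01170 (0.977). These values describe 18 means that share the same conditions.

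Divided by the annotated exon length, the levels of WT at 72 h of darkness spanned KIN2 at 1487 ± 138 CPM per kb (SD, n = 2), COR47 at 1093 ± 60.6, RAB18 at 978.7 ± 19.9, ERD10 at 739 ± 182, RD29A at 218 ± 23.0, RD29B at 64.3 ± 9.74, LTI30 at 30.4 ± 5.40, KIN1 at 29.6 ± 8.38, COR15A at 24.1 ± 3.46 and COR15B at 6.11 ± 2.41. LTI30, KIN1 and COR15A were neighbours in this order that did not differ beyond their SD. In ivd1-2 at 72 h COR47 came first at 855 ± 218 CPM per kb, KIN2 next at 773 ± 444, which did not differ beyond the SD, and RAB18 stood at 209 ± 103. At 0 h in WT the order was led by KIN2 at 77.0 ± 4.09 and ended with RD29B at 0.181 ± 0.0544. The lengths are merged exons of RefSeq TAIR10.1, while the counts were made on the build TAIR10. The order may therefore depend on the annotation.

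The wider pathway was read in 4 further lists, tested between ivd1-2 and WT over late darkness (12.7% of all genes higher, 12.8% lower). Of 13 tested cold regulators 3 were lower in ivd1-2, 1 was higher, and 9 did not pass (median log2 -0.08, all genes -0.01). The 3 were CBF1, CBF2 and CBF3, neighbouring close copies that encode the factors binding CCGAC. CBF1 at 72 h stood at 11.3 and 8.83 CPM in WT, 8.99 and 9.07 in hml1-2 and 2.87 and 5.04 in ivd1-2, and over late darkness its difference was log2 -1.33 ± 0.24 (adjusted p = 0.000686). CBF2 at 72 h stood at 2.103 and 1.61 in WT, 1.86 and 1.42 in hml1-2 and 0.708 and 1.01 in ivd1-2 (late darkness log2 -1.01 ± 0.25, adjusted p = 0.00469). CBF3 at 48 h stood at 0.152 and 0.436 CPM in WT, 0.768 and 0.338 in hml1-2 and at 0 counts in both ivd1-2 libraries (late darkness adjusted p = 0.00682). The higher gene was DREB2A, a drought and heat factor (log2 1.04 ± 0.35, adjusted p = 0.0339). It stood at 25.7 and 14.0 CPM in WT, 12.6 and 14.2 in hml1-2 and 86.9 and 22.8 in ivd1-2 at 72 h, the high value being that of replicate 1 of ivd1-2, the library that stands apart. Without that library its late dark difference from WT was log2 0.62 (adjusted p = 0.196). Its call stood in 4 of 12 fits with 1 library left out and was also lost without replicate 1 of ivd1-2 at 24 h or 48 h, either library of WT at 24 h or 48 h, or replicate 2 of WT at 72 h. At 6 h none of the 13 passed, with CBF1 at 11.6 and 16.2 CPM in WT, 11.3 and 13.2 in hml1-2 and 6.60 and 8.02 in ivd1-2.

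**Figure D5:**
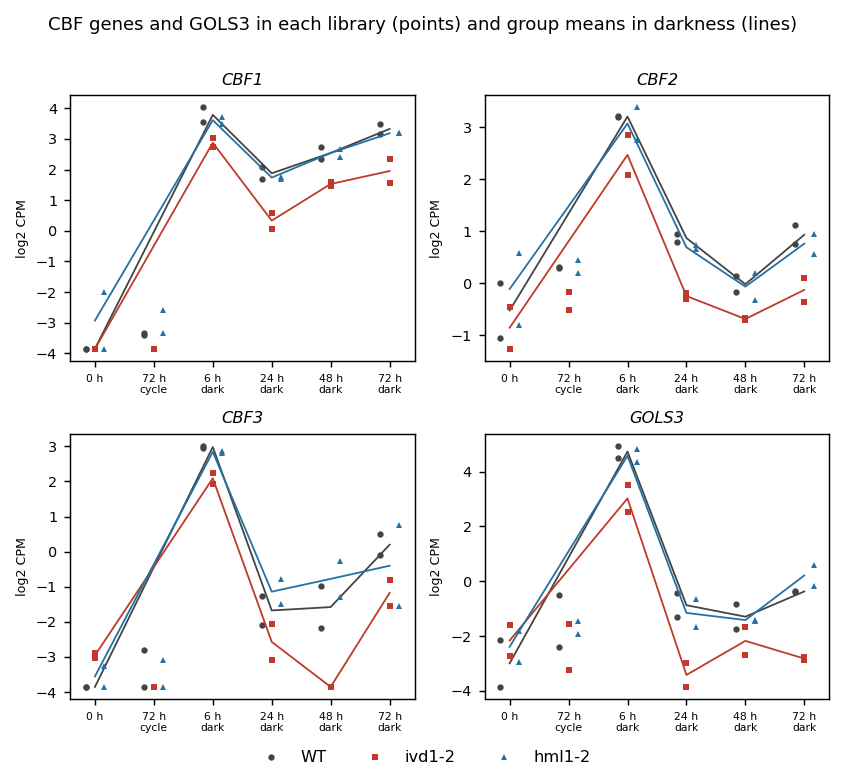
Level of CBF1, CBF2, CBF3 and GOLS3 (log2 CPM, prior count 2) in each of the 36 libraries (points) by condition, with lines through the group means in darkness; values near -4 are libraries with 0 counts. All 4 are highest at 6 h, and in late darkness the ivd1-2 points lie mostly below the others.

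Among 27 tested effectors outside the 10 members, 7 were lower in ivd1-2 and 0 higher (background 12.8% and 12.7%), with a median of log2 -0.11. GOLS1 and GOLS3 encode galactinol synthases, which start the synthesis of raffinose sugars. GOLS1 at 72 h stood at 150 and 109 CPM in WT, 127 and 91.1 in hml1-2 and 62.2 and 53.7 in ivd1-2 (late darkness log2 -0.93 ± 0.19, adjusted p = 0.00137). GOLS3 at 72 h stood at 0.701 and 0.707 CPM in WT, 0.810 and 1.46 in hml1-2 and 0.0674 and 0.0775 in ivd1-2, where each library held 2 counts (late darkness adjusted p = 0.00128). COR413-PM1, a cold-induced membrane protein, differed by -0.66 ± 0.20 (adjusted p = 0.02). Without 72 h the count of 7 became 2. It was 3 without replicate 2 of ivd1-2 at 24 h, 4 without replicate 1 of WT at 24 h or at 72 h, and 2 without replicate 2 of WT at 48 h or replicate 1 of ivd1-2 at 72 h. GOLS1 and GOLS3 kept their calls in 12 of 12 such fits, as did CBF1, CBF2 and CBF3.

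Of 4 tested dehydrins outside the members, ERD14 was higher in ivd1-2 (log2 0.44 ± 0.16, adjusted p = 0.0461) and XERO1 lower (-1.49 ± 0.42, adjusted p = 0.0163), and 2 did not pass (median log2 0.32). ERD14 at 72 h stood at 1454 and 1198 CPM in WT and 1955 and 1908 in ivd1-2, the opposite order to its relative ERD10, and its call stood in 4 of 12 fits with 1 library left out. XERO1 stood at 7.51 and 5.65 in WT, 3.86 and 4.42 in hml1-2 and 1.65 and 2.21 in ivd1-2, and its call was lost without replicate 1 of ivd1-2 at 24 h. Of 27 tested genes of abscisate synthesis and signalling 2 were higher, 4 lower and 21 not past the test (median log2 -0.09). Among all genes 12.7% were higher and 12.8% lower, so these counts were near or under the background. The receptor gene PYL7 (0.42 ± 0.14, adjusted p = 0.0353) and the phosphatase gene HAB1 (0.35 ± 0.12, adjusted p = 0.03) were higher, in calls that stood in 5 and 9 of 12 such fits. The factor genes ABF2 (-0.32 ± 0.09, adjusted p = 0.015) and ABI5 (-0.83 ± 0.25, adjusted p = 0.0187) and NCED3 (-0.75 ± 0.22, adjusted p = 0.0168), which encodes the enzyme that sets the rate of abscisate synthesis, were lower. The count of 4 was 1 without replicate 2 of ivd1-2 at 24 h or replicate 1 of ivd1-2 at 72 h, 2 without replicate 1 of ivd1-2 or replicate 2 of WT at 48 h, and 0 without 72 h. Guard cells make and sense abscisate, and in late darkness the 5 guard cell markers summed to 24.4 to 65.3 CPM in WT, 17.6 to 50.7 in hml1-2 and 20.6 to 55.5 in ivd1-2, ranges that overlapped. The mean log2 CPM of the 5, which weights them alike, at 72 h was 1.80 and 3.28 in WT, 1.43 and 2.40 in hml1-2 and 0.906 and 1.80 in ivd1-2. The sum of all 5 at 72 h was 24.4 and 65.3 CPM in WT, 17.6 and 37.0 in hml1-2 and 20.6 and 35.6 in ivd1-2, with overlapping libraries. Of the 5, MYB60 (log2 -0.86) and KAT1 (-1.30) were lower in ivd1-2, which does not describe the 5 as a set. The differences of FAMA, SLAC1 and HT1 are not reported here. The part of guard cells in the differences above was not tested.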

How the data were processed

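Per the labels, RNA of rosette leaves from 3 genotypes in 6 conditions was sequenced from stranded TruSeq libraries, 2 per group. The deposited files hold the authors' raw count per gene. Per the submitters' processing notes, the tools were HTSeq (no version), Cuffdiff 2.1.1, SAMtools 0.1.19, TopHat 1.4.1 and Trimmomatic 0.30, with the build TAIR10, in no stated order; their settings, strand included, are not given. The 5 tally lines of each file were removed (reads in no gene were 0.582% to 1.47% and ambiguous reads 1.70% to 2.36% of the total). All 36 libraries were fitted together with edgeR 4.0.16 (R 4.3.3) as 18 groups, which left 18 residual degrees of freedom, with TMM scaling and filterByExpr (count minimum 10, total minimum 15), quasi-likelihood tests and p-values adjusted by Benjamini-Hochberg over the 19457 genes; a call is an adjusted p under 0.05. Errors of log2 differences are SE. Plotted log2 CPM used a prior count of 2. The procedure was tested on simulated data. Alternatives used DESeq2 1.42.0, its size factors, other filters, a replicate block, only the groups compared and libraries left out. The members, gene lists and tests were chosen with earlier results of these data known. Names follow RefSeq, which matched 28009 of the 28774 loci. All 10 members, up to 3 called genes per list and direction with the smallest p, and the 3 genes most like each of 4 members are named. Depth limits precision for genes under about 1 CPM, where intervals of the fit cover library spread only.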

Additional observations from a re-analysis of the deposited data

Results flagged for a closer look

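The difference between ivd1-2 and each of the other genotypes changed between the light cycle and late darkness for RD29A and RD29B, by the test of that change itself. For RD29A the change was log2 -1.55 against WT and -1.76 against hml1-2. For RD29B it was log2 -2.29 against WT and -2.20 against hml1-2. The RD29B calls were lost in some fits with 1 library left out, while those of RD29A stood in all 20. In the light libraries RD29B held 1 to 18 counts each. The tests against WT and hml1-2 share the ivd1-2 libraries.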

How the results depend on the processing

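The RD29B and RD29A differences in late darkness kept their direction and call in every alternative run. Of 277 recomputed counts that left out no library, 251 stayed within 1.5 times the reported count. Fitted on only the groups compared, which leaves fewer residual degrees of freedom, the members lower in ivd1-2 than in WT went from 2 to 0 at 24 h, 1 to 0 at 48 h, 8 to 0 at 72 h and 8 to 5 over late darkness. Those lower than in hml1-2 went from 2 to 0 at 48 h, 6 to 0 at 72 h, 8 to 5 over late darkness and 2 to 1 for the change from the cycle. In that fit the members that fell from 6 to 24 h in hml1-2 went from 4 to 8 and those that rose from 24 to 72 h in ivd1-2 from 5 to 0, the other effectors from 7 to 3 and abscisate signalling from 4 to 2. Without 72 h, members lower over late darkness were 3 against WT and 3 against hml1-2, other dehydrins 0, other effectors 2 and abscisate signalling 0. Fewer samples enter that mean, and the share of all genes called in it was not computed. Against hml1-2 at 24 h the count of 0 became 2 with DESeq2 size factors, a minimum of 5 CPM, the replicate block or DESeq2's Wald test and 1 with no filter, from adjusted p-values at the threshold. DESeq2's Wald test gave 4 in place of 2 for the change from the cycle against hml1-2. The 5 CPM minimum removed the dehydrin and the cold regulators called (1 and 3 to 0), and no filter took the other effectors from 7 to 4; for these settings the cause was not tested further.

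With 1 library left out, the counts ran from 0 to 1 (24 h), 0 to 2 (48 h), 2 to 6 (72 h), 5 to 8 (late darkness), 1 to 3 (change from the cycle) and 0 to 1 (72 h minus 48 h) against WT. Against hml1-2 they ran from 1 to 2 (48 h), 2 to 5 (72 h), 5 to 10 (late darkness) and 1 to 3 (change from the cycle). The lists ran from 0 to 1 (other dehydrins), 2 to 7 (other effectors) and 1 to 6 (abscisate signalling). The value above 0 for 72 h minus 48 h came without replicate 2 of ivd1-2 at 72 h. In the change from the cycle, values that were not called changed sign: KIN1 ran from -1.99 to 2.42 against WT and from -2.04 to 2.71 against hml1-2 (highest without replicate 1 of ivd1-2 at 0 h, and 0.03 and 0.32 without its replicate 1 in the cycle), and KIN2 from -0.49 to 0.082 against WT (highest without replicate 2 of WT at 48 h).

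No label says that a replicate number marks a shared origin, so the libraries were not treated as paired. Same-numbered libraries did deviate together in most pairs of groups: the correlation of replicate 1 deviations ran from -0.333 to 0.849 (median 0.274), with 120 of 153 over 0.1. With the replicate block, members lower than in hml1-2 went from 0 to 2 at 24 h, from 6 to 7 at 72 h (with KIN1) and from 8 to 9 over late darkness (with COR47). The change from the cycle went from 2 to 3 members against WT and against hml1-2, with ERD10 (adjusted p = 0.0196 and 0.0276). The members that fell from 6 to 24 h in hml1-2 went from 4 to 5, those that rose from 24 to 72 h from 6 to 7 in WT and 7 to 8 in hml1-2, and abscisate signalling from 4 to 6. Depth limits KIN1, CBF3, GOLS3 and RD29B in the cycle, where libraries held few counts.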
